A study of Mus musculus with 12 samples.

Results

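Expression of 10 pluripotency and germ cell genes was examined in 5 RNA sequencing libraries of mouse cells that had been sorted for T, or Brachyury, a T-box factor that drives mesoderm formation at the primitive streak. The genes were taken by name from a table of 23421 gene symbols, and 10 of 10 were found in it: Pou5f1, Nanog, Esrrb, Klf4, Zfp42, Utf1, Dppa5a, Dppa3, Dppa2 and Dppa4. Of the embryo libraries, 1 was labelled wild type and came from Theiler stages TS12 and TS13 together, and 2 carried the T_Y88A allele, 1 from TS12 and 1 from TS13. These are the stages at which the first somites form. The other libraries were cultured cells, Day 4 after embryonic stem cells had been directed to mesoderm, 1 named T_wt and 1 T_Y88A in their titles. In that culture, hanging-drop aggregates were plated on fibronectin and given BMP4, then WNT3A with FGF8. T_Y88A is an amino acid substitution in T. All 5 libraries had a mixed 129S2 and C57Bl6J background. The design text of the series calls the controls T_het, while the RNA labels say wild type, and the column of the embryo control begins with the same letters as the T_Y88A columns, so every genotype direction rests on the label. The number of embryos per library, how the sort recognised T and whether the stem cells were 1 clone are not stated in the labels. Chromatin samples, 7 in all, were not analysed here.

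Pluripotency is the capacity of the early epiblast, and of embryonic stem cells, to give rise to all embryonic germ layers. Pou5f1, Nanog and Sox2 form its transcriptional core. In the naive state of the preimplantation epiblast this core works with Esrrb, Klf4, Tfcp2l1 and Zfp42, and after implantation those partners are lost while Pou5f1 continues together with formative and primed genes such as Fgf5 and Otx2. In the mouse, Pou5f1 is shut down in somatic cells as somites form, and primordial germ cells keep it and express Dppa3.

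Values are FPKM, fragments per kilobase of gene model scaled to mapped fragments, which can be compared between genes because length is divided out. Absolute depth cannot be had from FPKM. From the steps between low values, depth was estimated relative to the embryo control. It came to 0.753 in T_Y88A TS12, 0.971 in T_Y88A TS13, 1.04 in the Day 4 control and 0.486 in Day 4 T_Y88A. T itself lay between 26.99 and 72.9 FPKM in the 5 libraries, with the lower values in T_Y88A TS13 (26.99) and Day 4 T_Y88A (32.5). Of 5 mesoderm genes, Mixl1, Mesp1, Tbx6, Msgn1 and Eomes, the summed level was 57.8 FPKM in the embryo control, 9.50 and 5.05 in T_Y88A TS12 and TS13, and 6.39 and 12.3 in the Day 4 control and Day 4 T_Y88A. At Day 4, Mixl1, Mesp1 and Msgn1 were each under 1 FPKM, and most of the sum was Eomes (4.27 and 9.43 FPKM).

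RefSeq promoter windows (GRCm38.p6, the mm10 build; 250 bases before to 50 after the start) were at hand for 6 of the 10 genes: Pou5f1, Nanog, Esrrb, Klf4, Zfp42 and Utf1. Shown here are the windows of the gene with the highest level and of the pair that hold an octamer or its core, the motif of its product OCT4. The windows of Utf1 and Esrrb, which also stood above the embryos at Day 4, held none of the motifs searched. Capitals mark, in Nanog (chr6:122707239-122707538, plus strand), the octamer core TTTGCAT followed after 1 base by the SOX site ACAATG; in Zfp42 (chr8:43306960-43307259, minus strand), the octamer ATGCAAAT, which lies on the other strand and so reads ATTTGCAT here; and in Pou5f1 (chr17:35505782-35506081, plus strand), the nuclear receptor half-site AGGTCA.
Nanog: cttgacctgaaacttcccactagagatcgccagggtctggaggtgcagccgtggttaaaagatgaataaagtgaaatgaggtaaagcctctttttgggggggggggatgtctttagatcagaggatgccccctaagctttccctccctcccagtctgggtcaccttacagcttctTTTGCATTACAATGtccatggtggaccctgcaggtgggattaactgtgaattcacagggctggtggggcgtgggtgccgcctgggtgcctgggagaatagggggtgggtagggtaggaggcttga
Zfp42: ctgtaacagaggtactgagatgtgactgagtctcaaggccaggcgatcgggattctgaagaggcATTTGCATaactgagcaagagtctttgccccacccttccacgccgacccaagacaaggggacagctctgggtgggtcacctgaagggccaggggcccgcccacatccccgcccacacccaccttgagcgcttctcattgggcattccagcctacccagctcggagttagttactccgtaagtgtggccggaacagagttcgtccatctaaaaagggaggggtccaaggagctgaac
Pou5f1: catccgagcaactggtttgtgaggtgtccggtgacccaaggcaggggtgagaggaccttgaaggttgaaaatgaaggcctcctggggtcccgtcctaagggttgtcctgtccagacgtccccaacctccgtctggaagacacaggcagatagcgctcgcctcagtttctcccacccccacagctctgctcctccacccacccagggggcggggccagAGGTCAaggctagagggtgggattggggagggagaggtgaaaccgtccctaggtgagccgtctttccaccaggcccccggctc

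The octamer and SOX pair began 75 bases before the Nanog start and was found, on either strand, in 2 of 32851 windows of the same length, both of them overlapping windows of Nanog. The pair was searched for after the Nanog sequence had been read, so this count describes the sequence and tests nothing. The octamer of Zfp42 lay 186 bases before its start, and 1.74% of all windows held that motif. The nuclear receptor half-site AGGTCA, a part of the longer ESRRB site TCAAGGTCA, lay 33 bases before the Pou5f1 start. This half-site was also added after the sequences had been read, and it occurs in 16.3% of windows. Another copy lay in the Nanog window. The T half-site TCACACC was in 0 of the 9 windows of these genes and in 3.98% of all windows, and the ESRRB site TCAAGGTCA in 0 of 9 and in 0.423% (both strands searched). The KLF site GGGTGTGG was in the Zfp42 window and in 3.56% of all windows, and the E-box CACGTG in the Klf4 window and in 7.15%. A match is a run of letters, not a shown binding site. The windows differed in CpG content, with 40 CG pairs at Klf4, 17 at Utf1, 11 each at Zfp42 and Pou5f1, 7 at Esrrb and 4 at Nanog, against a median of 7.0 over all windows.

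All 10 genes were set beside each other in the embryo and in culture first. Day 4 cells held 8 of the 10 at levels above every embryo library, Klf4 and Dppa3 being the exceptions; by the same rule and with no filter, 31.5% of 19761 genes stood higher at Day 4 and 23.9% lower. In the embryos 4 of the 10 genes (Pou5f1, Nanog, Dppa3 and Dppa5a) reached 1 FPKM, each in all 3 libraries. At Day 4, 8 of the 10 exceeded 1 FPKM in both libraries, and Klf4 and Dppa2 stayed under 1 FPKM in all 5. In these bulk libraries, fewer cells expressing a gene and less RNA per cell cannot be told apart.

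**Figure D1:**
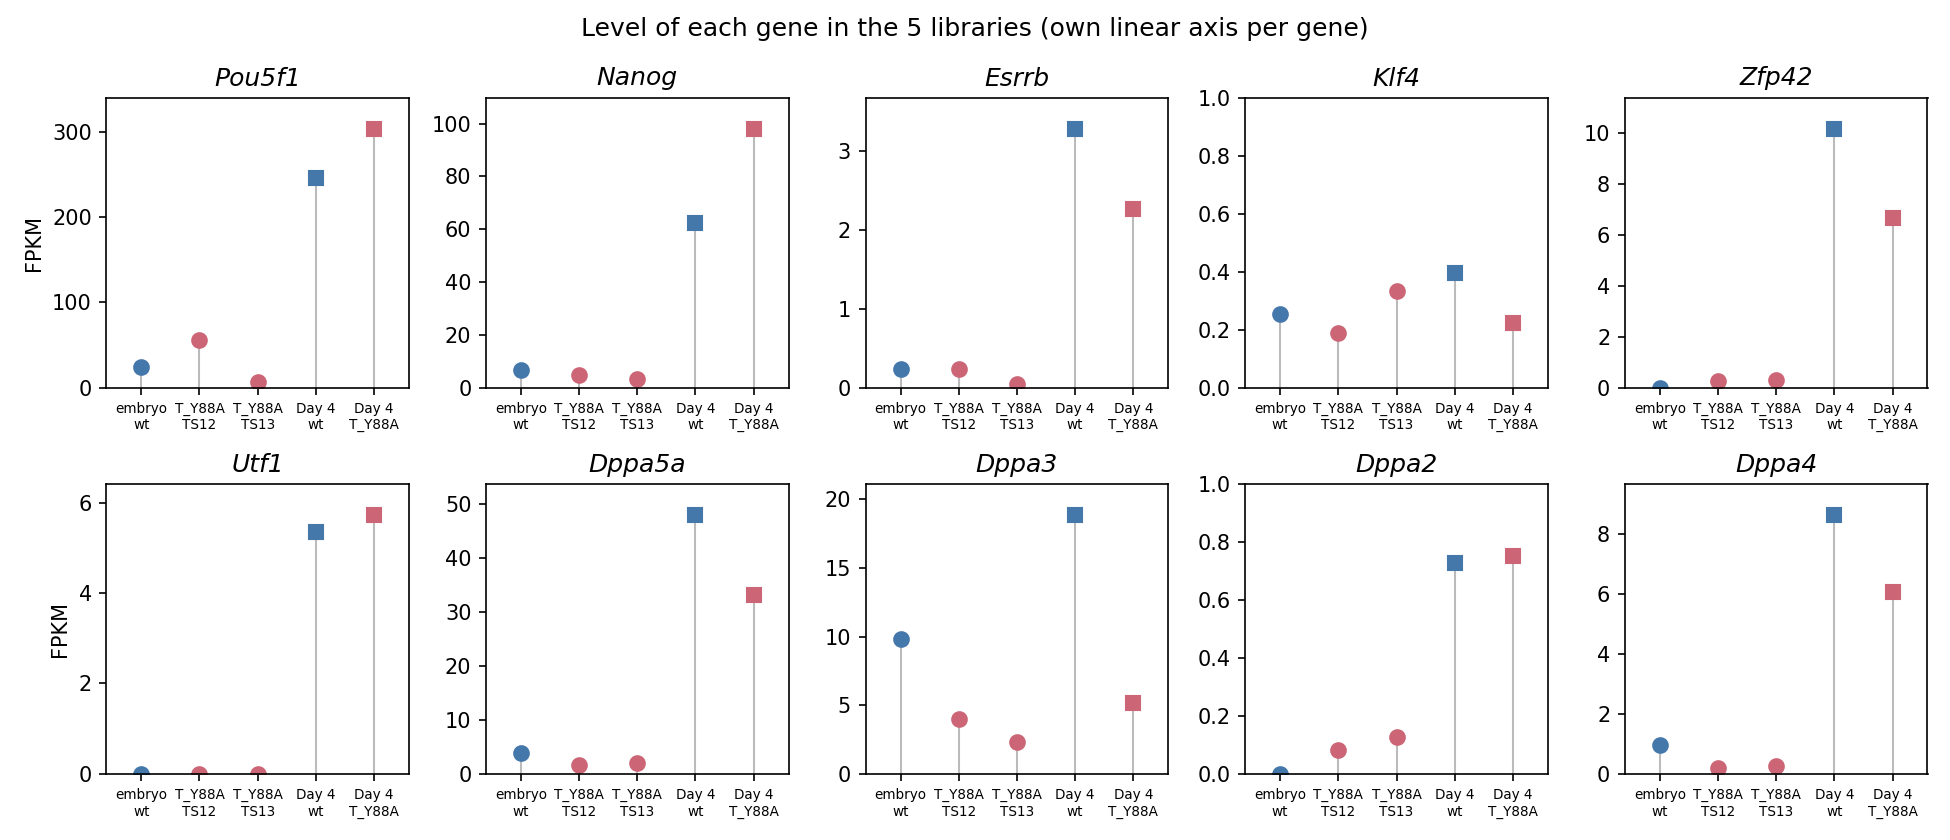
FPKM of each of the 10 genes (1 panel each, own linear axis from 0) in the 5 libraries; circles are embryo and squares Day 4 libraries, blue wild type and red T_Y88A, 1 point per library. Pou5f1 runs from 6.07 in T_Y88A TS13 to 303 in Day 4 T_Y88A, Utf1 is at 0 in the 3 embryo libraries, and Klf4 stays under 0.4 throughout.

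Pou5f1 (OCT4; chromosome 17, 35506032 to 35510777), the POU factor without which pluripotency is lost, had the highest level of the 10 in each of the 5 libraries. The embryo control held 24.3 FPKM, with more in T_Y88A TS12 (55.7) and less in T_Y88A TS13 (6.07), while the Day 4 control held 246 and Day 4 T_Y88A 303. The lower Day 4 value was 4.42 times the highest embryo value. Genes were tested where their mean over the libraries compared reached 1 FPKM, and 51.9% of them were called in either direction for Day 4 minus embryo. In that comparison each genotype had 1 Day 4 library, and the fit had 2 residual degrees of freedom beside 6.06 prior ones. Its SEs and p-values therefore measure no spread between replicate cultures. On the log2(FPKM + 1) scale, limma over 5 libraries with genotype as a covariate gave a Day 4 minus embryo difference of 3.65 ± 0.71 (SE, adjusted p = 0.00339), in a comparison where 25.9% of 11602 genes were called higher. That call ended with robust variance estimates (adjusted p = 0.151) and without the Day 4 T_Y88A library (0.0684).

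Nanog (chromosome 6, 122707489 to 122714633), the homeobox factor that holds stem cells in self-renewal, stood at 6.52, 4.77 and 3.38 FPKM in the 3 embryo libraries (control, TS12, TS13), and 62.1 and 97.9 at Day 4 (control, T_Y88A). It ranked behind Pou5f1 in 4 libraries and behind Pou5f1 and Dppa3 in the embryo control. The mean of its embryo libraries was 4.89 ± 1.58 (SD, n = 3). That SD pools 1 control and 2 T_Y88A libraries, which are not replicates of the same condition. The lower Day 4 library was 9.53 times the highest embryo library. The log2 difference of Day 4 from embryo was 3.77 ± 0.28 (SE, limma adjusted p = 3.29e-05), and it was 3.07 within the libraries labelled wild type and 4.30 within T_Y88A.

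Of the naive partners, Zfp42 (REX1; chromosome 8, 43295067 to 43307009), a zinc finger protein derived from YY1, showed the widest gap. It was listed at 0 in the embryo control and at 0.265 and 0.289 FPKM in T_Y88A TS12 and TS13, against 10.2 and 6.66 in the Day 4 control and Day 4 T_Y88A, the lower of which was 23.1 times the highest embryo value. The log2 difference was 2.97 ± 0.25 (SE, limma adjusted p = 6.84e-05). Esrrb (chromosome 12, 86361117 to 86521628), an orphan nuclear receptor, stood at 0.240, 0.235 and 0.0471 FPKM in the embryo libraries in the same order and at 3.27 and 2.26 at Day 4 (log2 difference 1.63 ± 0.22 SE, limma adjusted p = 0.000600). Klf4 (chromosome 4, 55527137 to 55532475), a Kruppel-like factor of the reprogramming set, stood between 0.188 and 0.396 FPKM in the 5 libraries, and its embryo and Day 4 values overlapped.

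Utf1 (chromosome 7, 139943856 to 139945112), a chromatin-bound protein of stem cells and germ cells, was listed at 0 in the 3 embryo libraries and stood at 5.34 and 5.72 FPKM at Day 4. A value listed at 0 can be a failed estimate in this table, since 3 genes exceeded 20 FPKM in 4 libraries and were at 0 in the remaining 1, so no fold is given. Limma's estimate of 2.71 ± 0.21 (SE, adjusted p = 4.21e-05) on the log2(FPKM + 1) scale has a size set by the added 1 and measures no fold; with a pseudocount of 0.1 it was 5.82. The same change of pseudocount moved Zfp42 to 5.24, Esrrb to 3.37 and Dppa4 to 3.71, and left Nanog at 4.00, Dppa5a at 3.91 and Pou5f1 at 3.73. Dppa5a (chromosome 9, 78367052 to 78368199), a KH-domain RNA-binding protein of stem cells, stood at 3.87, 1.65 and 1.94 FPKM in the embryo libraries, in the same order, and at 47.8 and 33.1 at Day 4. That is a log2 difference of 3.49 ± 0.17 (SE, limma adjusted p = 7.12e-06), with the lower Day 4 library 8.55 times the highest embryo library. RefSeq lists 2 pseudogenes of this family, Dppa5b and Dppa5c, 2 of Nanog, 1 of Dppa3 and 5 related sequences of Pou5f1, none of them a row of the table. How reads shared with such copies were assigned is not stated, so the levels of Dppa5a, Nanog, Dppa3 and Pou5f1 are uncertain to that extent.

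**Figure D2:**
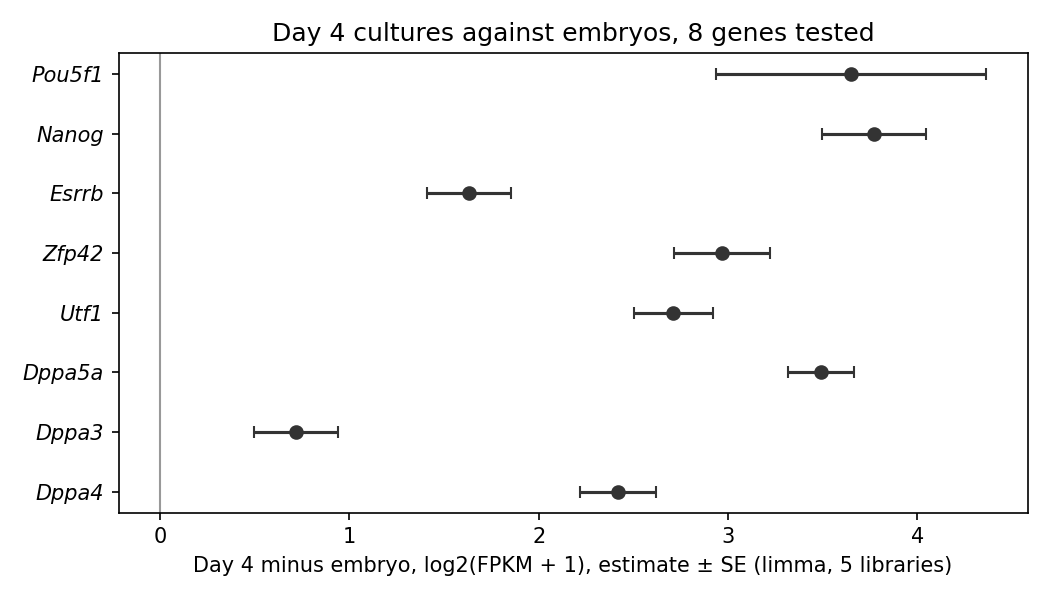
Difference of Day 4 from embryo on the log2(FPKM + 1) scale for the 8 genes whose 5-library mean reached 1 FPKM; points are limma estimates with genotype as a covariate and bars are 1 SE. Nanog has the highest estimate (3.77), Pou5f1 the widest bar (0.71) and Dppa3 the lowest estimate (0.72); with a pseudocount of 0.1 Utf1 (5.82) and Zfp42 (5.24) exceed Nanog (4.00).

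Utf1, Dppa4, Esrrb and Zfp42 passed the filter on mean FPKM only through their Day 4 values, so their calls follow in part from that filter. With no filter limma's adjusted p was 0.00300 for Utf1, 0.00401 for Dppa4, 0.00539 for Esrrb and 0.00481 for Zfp42, the highest among the alternatives for each.

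Dppa2 and Dppa4 are neighbouring genes on chromosome 16, 16.0 kb apart, whose SAP-domain proteins act as partners at CpG-rich promoters. They differed in level. Dppa4 (48283735 to 48294292) stood at 0.959, 0.208 and 0.258 FPKM in the embryo libraries, in the same order, and at 8.61 and 6.04 at Day 4 (log2 difference 2.42 ± 0.20 SE, limma adjusted p = 6.10e-05). Dppa2 (48310274 to 48319513) was listed at 0 in the embryo control and stood at 0.0821 and 0.128 FPKM in the T_Y88A embryos and at 0.729 and 0.754 at Day 4. Both Dppa2 values at Day 4 were above the embryos, but the gene was below the level tested; with no filter its log2 difference was 0.72 (limma adjusted p = 0.00579).

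Dppa3 (Stella; chromosome 6, 122626424 to 122630271) protects the maternal genome from demethylation in the zygote and marks primordial germ cells. The controls held 9.84 FPKM in the embryo and 18.8 at Day 4, and T_Y88A cells held 4.01 at TS12, 2.30 at TS13 and 5.19 at Day 4. Day 4 T_Y88A was below the embryo control, so the systems overlapped. The Day 4 minus embryo difference was 0.72 ± 0.22 (SE, limma adjusted p = 0.0265), and that call ended in 6 of 12 alternatives, with adjusted p from 0.00785 to 0.145. Dppa3 lies 77.2 kb from Nanog with 0 protein-coding genes annotated between them. Both neighbours fell in the order control, TS12, TS13 among the embryo libraries, while at Day 4 Dppa3 was lower and Nanog higher in T_Y88A than in the control.

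Other pluripotency and epiblast genes were then set against the same contrast. Of 22 naive and general pluripotency genes, 16 were tested; 7 were higher at Day 4 (Tdgf1, L1td1, Lefty2, Nodal, Lefty1, Tfcp2l1 and Tdh), 3 were lower (Tbx3, Lin28b and Lin28a) and 6 did not pass limma's test. Of the tested genes, 4 (Tdgf1, Nodal, Lefty1 and Tfcp2l1) were under 1 FPKM in every embryo library and entered only through Day 4. Of all genes tested, 25.9% were called higher. With no filter, 15 of the 22 (68.2%) stood above every embryo library at Day 4 and 3 below, beside 31.5% and 23.9% of all genes. Tdgf1 (Cripto), a Nodal co-receptor, was listed at 0 in the 3 embryo libraries and stood at 261 and 498 FPKM at Day 4. As for Utf1, no fold is given. Nodal itself was at most 0.137 FPKM in the embryos and at 6.73 and 12.1 at Day 4. Tbx3, a T-box factor of naive cells that is also used in many later tissues, ran the other way, at 5.84, 6.28 and 5.22 FPKM in the embryos and 0.448 and 0.0680 at Day 4. Klf2, another naive factor, reached 1.15 and 0.859 FPKM at Day 4, and Tfcp2l1 2.48 and 2.28.

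Of 18 formative and primed genes, all tested, 11 were higher at Day 4, 5 lower and 2 did not pass. Fgf5, Otx2, Pou3f1 and Dnmt3l entered only through Day 4, being under 1 FPKM in every embryo library. With no filter, 11 of the 18 (61.1%) stood above every embryo library at Day 4 and 6 (33.3%) below, beside 31.5% and 23.9% of all genes. Fgf5, the marker of the postimplantation epiblast, was at most 0.0206 FPKM in the embryos and stood at 46.5 and 45.3 at Day 4 (log2 difference 5.52 ± 0.18 SE, limma adjusted p = 1.51e-06). Otx2, a homeobox factor of the epiblast and the forebrain, was at most 0.362 FPKM in the embryos and 29.2 and 50.6 at Day 4. Pou3f1, Dnmt3b, Dnmt3l, Zic2, Zic5, Cdh1, Epcam and Etv5 were among the others that were higher. The cadherins changed in opposite directions, with Cdh1 (E-cadherin) at 70.7 and 72.3 FPKM at Day 4 against 3.06 to 6.12 in the embryos, and Cdh2 (N-cadherin) at 6.45 and 5.49 against 32.7 to 46.0. Dnmt3a, Sox11, Etv4 and Lef1 were lower too. A list of 19 genes from the POU, KLF, ESRR, YY and DPPA families of the 10 genes also held Zfp42 itself; 18 were in the table and 12 were tested. Besides Zfp42, Pou3f1, Klf6, Klf9, Klf10 and Klf13 were higher at Day 4, 0 were lower (0 at an unadjusted p under 0.05 in limma) and 6 did not pass. With no filter, 9 of the 18 (50.0%) stood above every embryo library at Day 4 and 4 (22.2%) below, beside 31.5% and 23.9% of all genes. Klf10, a zinc finger factor induced by TGF-beta, stood at 9.11 to 9.88 FPKM in the embryos and 97.7 and 106 at Day 4.

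**Figure D3:**
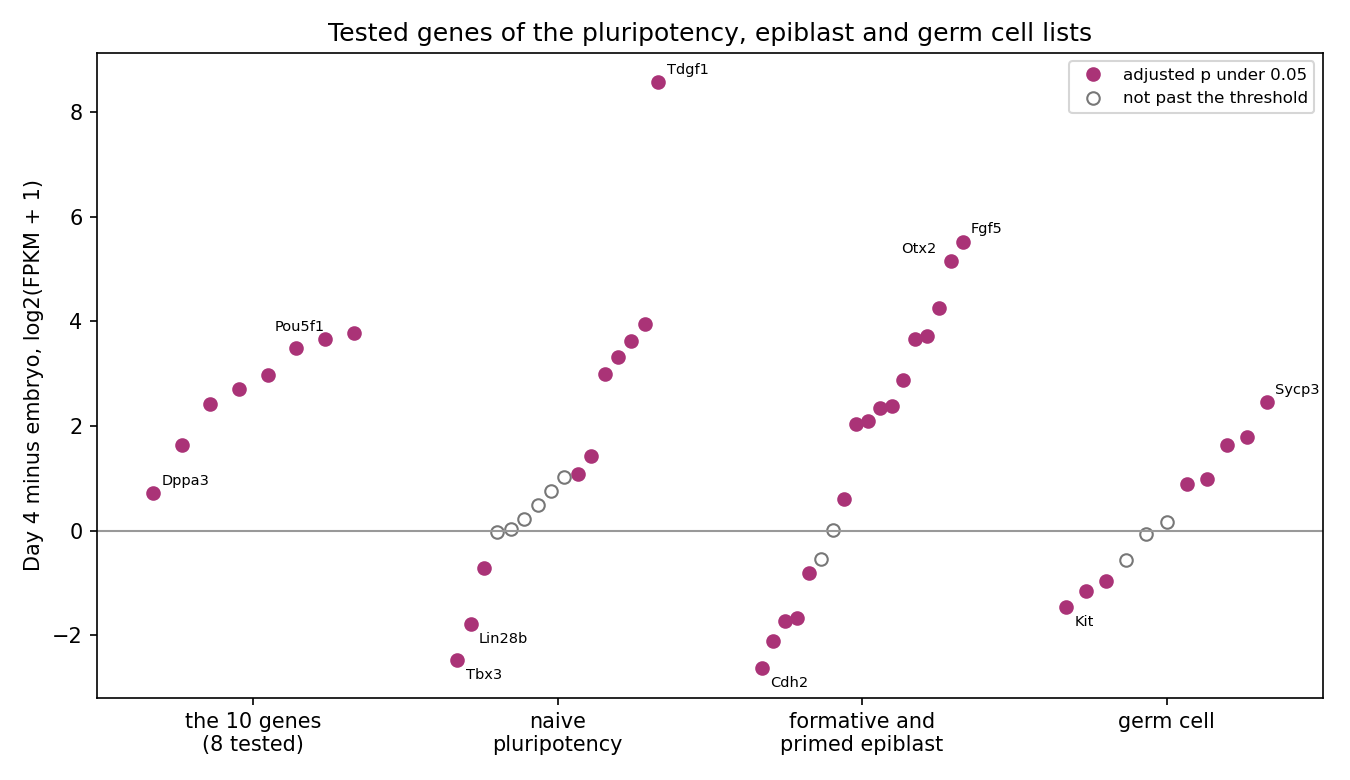
Day 4 minus embryo differences on the log2(FPKM + 1) scale for the tested genes of 4 sets, sorted within each; filled points passed limma's adjusted p of 0.05, open points did not. Of the tested genes, 4 of the 10 genes, 4 naive and general pluripotency genes and 4 formative ones entered only through Day 4. Tdgf1 is the highest point (8.56) and Cdh2 the lowest (-2.63). Tdgf1 was listed at 0 in the 3 embryo libraries, so the size of its difference is set by the added 1 and measures no fold.

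Germ cell genes were mixed. Of 25 listed, 11 were tested. Sycp3, Ifitm3, Dnd1, Tfap2c and Tdrd12 were higher at Day 4, Kit, Fut4 and Ifitm1 were lower and 3 did not pass. Of all genes tested, 25.9% were called higher. With no filter, 10 of the 25 (40.0%) stood above every embryo library at Day 4 and 4 (16.0%) below. Over all 19761 genes the shares were 31.5% and 23.9%. Sycp3, a synaptonemal complex protein of meiosis, stood at 13.9 and 11.95 FPKM at Day 4 and between 0.684 and 2.16 in the embryos. Nanos3, an RNA-binding protein required by migrating germ cells, was listed at 0 in all 5 libraries, and Prdm1, the repressor that specifies germ cells, lay between 0.465 and 1.63 FPKM. The 7 germ cell markers were Prdm1, Prdm14, Tfap2c, Nanos3, Dnd1, Dppa3 and Kit. Their summed level was 28.3, 20.8 and 18.9 FPKM in the embryos and 35.0 and 21.5 at Day 4. Dppa3, itself among the 10 genes, made up 9.84, 4.01 and 2.30 FPKM of the embryo sums. At Day 4 it made up 18.8 and 5.19, so the sums are not separate from it. In the order embryo control, T_Y88A TS12, T_Y88A TS13, Day 4 control and Day 4 T_Y88A, 1, 1, 2, 1 and 1 of the 7 were at 0.

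Markers of other cells moved with the Day 4 contrast. Of 8 genes of undifferentiated stem cells, 5 are among the 10. The summed level of the 8 was 11.5 to 17.1 FPKM in the embryos and 128 and 143 at Day 4. Most of the Day 4 sum was Nanog and Dppa5a. Of 7 endoderm genes the sum was 29.3 to 54.7 in the embryos and 583 and 529 at Day 4, most of it Apoe. At Day 4 Foxa2 stood at 28.7 and 19.6 FPKM and Afp at most 0.0468. With no filter, 3 of the 7 (42.9%) stood above every embryo library at Day 4, beside 31.5% of all genes. The other 4 (Sox17, Ttr, Afp and Apoa1) overlapped. Of 7 extraembryonic genes the sum was 137 to 207 in the embryos and 466 and 475.5 at Day 4. Most of the Day 4 sum was Krt8, with the defining Elf5 at 0.208 FPKM and 0 in those libraries. The genes of this list went both ways. Of 5 tested, Krt7, Krt8 and Rhox5 were higher at Day 4, and Cdx2 and Gata3 were lower. Cdx2 stood at 72.3 to 101 FPKM in the embryos and at 0.0974 and 0.250 at Day 4. Feeder fibroblast genes, 8 in all, summed to 21.7 to 25.1 FPKM in the embryos and to 2.65 and 2.44 at Day 4. The part of these cells in the differences was not tested. Stage, culture and isolation cannot be told apart in this contrast.

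Within the embryos the genotype comparison asks which genes differ in T_Y88A cells sorted for T. Dppa3 fell, by 1.41 ± 0.28 (SE) on the log2 scale (limma adjusted p = 0.0206), from 9.84 FPKM to 3.16 ± 1.21 (SD, n = 2). It was the 1 gene called of 4 tested, where 2.4% of 11145 genes were called and 1.63% were called lower. Its call ended with no filter (adjusted p = 0.364), under quantile normalization (0.107) and with all 5 libraries in the fit (0.144). Dppa5a was at 3.87 FPKM against 1.65 and 1.94, and Nanog at 6.52 against 4.77 and 3.38, both T_Y88A libraries being below the control; neither passed (adjusted p = 0.146 and 0.271). Over all 10 genes, with no filter, 5 had both T_Y88A values under the control's (Nanog, Dppa3, Dppa4, Dppa5a and Esrrb). Of the 11145 genes tested, 38% did so. Dppa4 and Esrrb were below the filter of that set, so the shares are not over like genes. Pou5f1 lay on both sides of the control, and its difference of -0.34 ± 0.77 (SE, adjusted p = 0.891) has a sign set by which stage is used. Of the other lists, 1 of 11 tested naive and general pluripotency genes rose, Sox2 (17.9 FPKM against 30.7 and 41.4, adjusted p = 0.0315), and 1 of 11 germ cell genes fell, Ifitm1 (117 against 64.1 and 74.7, adjusted p = 0.0370). None of 14 formative genes and none of 10 genes of the family list passed limma's adjusted threshold (5 and 2 at an unadjusted p under 0.05). Beside these, the 2 mesoderm genes tested, Msgn1 (41.1 FPKM against 3.48 and 2.71) and Tbx6 (12.6 against 4.79 and 1.60), fell. So did the endoderm gene Apoe (50.6 FPKM against 31.8 and 26.9), 1 of 2 tested. Of 5 extraembryonic genes tested, Krt7 (4.17 against 0.502 and 0.936) and Rhox5 (4.96 against 0.239 and 0.371) fell. The remaining extraembryonic ones did not pass and lay on both sides of the control. They were Cdx2 (73.8 against 101 and 72.3), Krt8 (73.5 against 103 and 61.0) and Gata3 (1.80 against 1.35 and 1.87). Of the 7 germ cell markers 5 were tested and Dppa3 passed. Among the others, Dnd1 was at 3.01 FPKM against 0.955 and 0.994 (adjusted p = 0.0818), Prdm1 at 1.63 against 1.10 and 0.833 (0.533) and the untested Prdm14 at 1.07 against 0.0123 and 0. Tfap2c (1.30 against 2.72 and 1.69) and Kit (11.4 against 12.01 and 13.1) were above the control. Whether cell makeup contributed to the Dppa3 difference was not tested.

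The fit has 1 residual degree of freedom, from the 2 T_Y88A libraries, which also differ in stage. The lone control is assumed to vary as they do. Limma's variance for each gene came mostly from the trend over all genes, with 11 prior degrees of freedom beside the 1 residual. Nothing states that libraries came from separate litters. The p-values therefore rest on these samples and that shared trend, and cannot be read as a spread between litters.

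Pou5f1 gave the widest stage difference of the group. From T_Y88A TS12 to T_Y88A TS13 it went from 55.7 to 6.07 FPKM, 9.17 times lower, with the mixed-stage control in between at 24.3. This was the second lowest of 11057 log2 differences (-3.00), behind Hnrnpd, which was listed at 0 in TS13, and 0.588% of genes were at least 2-fold lower. With 1 library per stage there is no replicate check. T went from 69.8 to 26.99 FPKM between the same libraries, and the part of the sort in the Pou5f1 difference was not tested. Nanog (4.77 and 3.38 FPKM) and Dppa3 (4.01 and 2.30) were also lower in TS13 but by less than 2-fold, and Dppa5a was 1.65 and 1.94. The naive and general pluripotency genes with the widest differences were Fgf4 (2.08 and 0.0980 FPKM), Klf5 (4.34 and 1.49) and Tdh (1.73 and 0.474). Among formative genes, Etv4 went from 23.5 to 10.99, Sox3 from 2.28 to 5.67 and Cdh1 from 6.12 to 3.06.

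**Figure D4:**
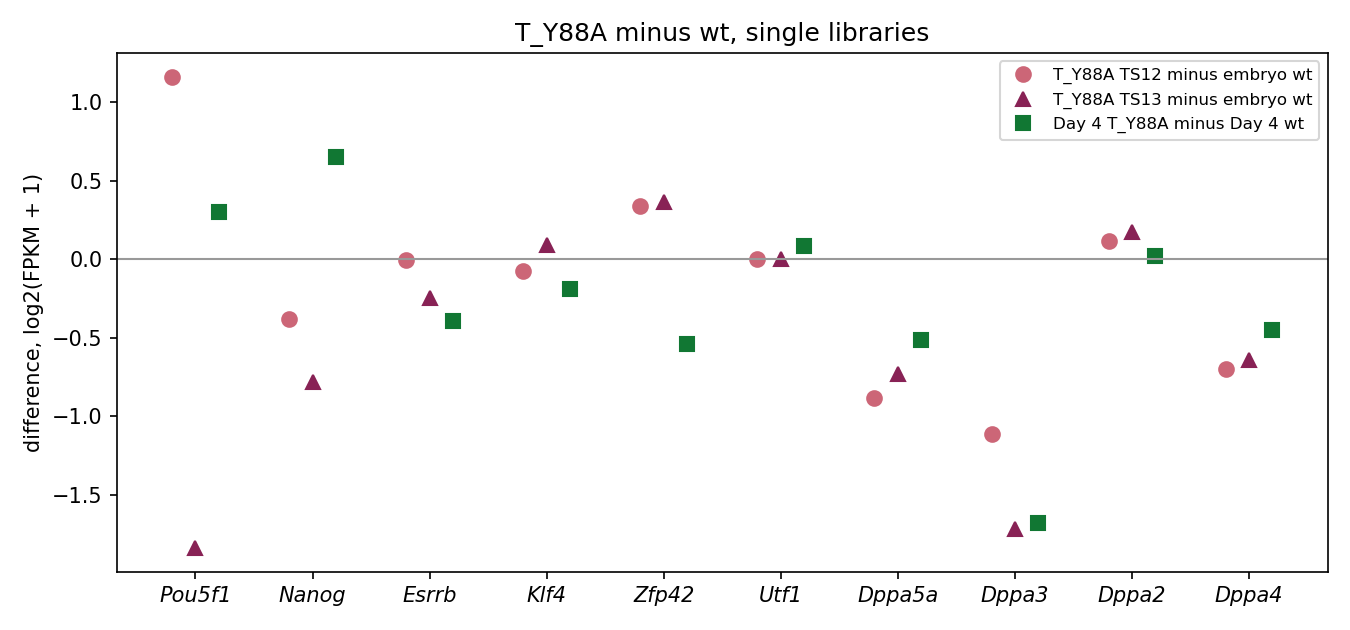
T_Y88A minus wild type on the log2(FPKM + 1) scale for the 10 genes; each point compares 1 T_Y88A library with 1 control library, and both embryo points of a gene share the same control. Dppa3 is the lowest of the 10 in the TS12 and Day 4 comparisons (-1.11 and -1.68), and Pou5f1 has points on both sides of 0 in the embryo (1.16 and -1.84).

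In culture, 1 Day 4 T_Y88A library was set beside 1 control, with no test. Dppa3 stood at 18.8 FPKM in the control and 5.19 in T_Y88A, 3.63 times lower (log2 difference -1.68), and it was the 1 gene of the 8 measured to pass 2-fold, where 1.3% of 11550 genes were at least 2-fold lower. Pou5f1 was 246 and 303 FPKM, Nanog 62.1 and 97.9, and Utf1 5.34 and 5.72, each higher in T_Y88A. Dppa5a (47.8 and 33.1 FPKM), Dppa4 (8.61 and 6.04), Zfp42 (10.2 and 6.66) and Esrrb (3.27 and 2.26) were lower, each at 0.656 to 0.702 times the control. The relative depth of the T_Y88A library was the lowest of the 5, and T stood at 72.9 and 32.5 FPKM. Around them, Tdgf1 (261 and 498 FPKM), Nodal (6.73 and 12.1) and Lefty2 (14.3 and 24.4) had the widest differences among naive and general pluripotency genes, Etv4 (1.26 and 4.97), Otx2 (29.2 and 50.6) and Etv5 (26.4 and 43.7) among formative genes, and Ddx4 (1.95 and 0.959), Ifitm3 (34.1 and 23.0) and Tdrd12 (2.33 and 1.35) among germ cell genes.

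Over the 3 comparisons of a T_Y88A library with the control of its system, 4 of the 10 genes were lower each time. These were Dppa3, Dppa4, Dppa5a and Esrrb. Another 1, Dppa2 (under 1 FPKM), was higher each time. Of all 11602 genes tested over 5 libraries, 21.1% were lower each time and 18.3% higher. That set leaves out Dppa2 and Klf4, which were below the filter. For Esrrb the TS12 value was close to the control's (0.235 and 0.240 FPKM). In the fit over 5 libraries with the system as a covariate, Dppa3 had a difference of -1.53 ± 0.22 (SE, adjusted p = 0.132), Dppa5a one of -0.68 ± 0.17 (SE, 0.372) and Dppa4 one of -0.57 ± 0.20 (SE, 0.451). None of the 8 tested genes passed limma's adjusted threshold there, 3 had an unadjusted p under 0.05, and 0.069% of all genes were called. Pou5f1, at -0.06 ± 0.71 (SE), and Nanog, at -0.05 ± 0.28 (SE), changed sign with the libraries left out.

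Whether the genotype difference itself differed between Day 4 and embryo was tested by an interaction term. It was 1.23 ± 0.34 (SE, limma adjusted p = 0.289) for Nanog, which was lower in both T_Y88A embryo libraries and higher in T_Y88A at Day 4. For Zfp42 it was -0.89 ± 0.33 (SE, limma adjusted p = 0.370), and -2.5 with a pseudocount of 0.1. Zfp42 was listed at 0 in the embryo control, so the size of its term depends on the added 1. For Dppa3 the interaction was -0.27 ± 0.45 (SE, limma adjusted p = 0.834). None of the 8 tested genes passed limma's threshold, 2 had an unadjusted p under 0.05, and 0.147% of all genes were called. With 1 residual degree of freedom in this fit, a gene that did not pass is not shown to lack such a difference.

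By the distance between centred log2(FPKM + 1) profiles over the 5 libraries, the genes of 11602 most like Pou5f1 were Cfc1 (root mean square distance 0.64), Jakmip1 (0.65) and F2rl1 (0.66). Cfc1 (Cryptic), a relative of Tdgf1, stood at 0.370, 1.47 and 0.143 FPKM in the embryos and 17.4 and 23.7 at Day 4, with the same order among the embryo libraries as Pou5f1. Nanog was the 19th nearest gene to Pou5f1 (0.84). Most like Utf1 were Tuft1, Shroom2 and 1600029D21Rik (0.05, 0.05 and 0.08), and most like Dppa5a were Erap1, Apoe and St14 (0.18, 0.21 and 0.27). These distances rest on 5 libraries and mainly on the Day 4 contrast.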

How the data were processed

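RNA was sequenced from cells sorted for T, with ScriptSeq v2 low-input libraries per the labels' protocols. The deposited values are FPKM, as the authors computed them per the file headers; the submitters' processing notes name TopHat2 2.0.8, Cufflinks 2.1.1 and bedtools 2.23.0 and build mm10, with no role or order. Strand-specific counting is not stated. Of the value columns, 5 were matched to samples by label and 0 left unused.

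Values were analysed here as log2(FPKM + 1), a scale on which changes of low genes come out too small. Genes entered a test when their mean across the compared libraries reached 1 FPKM, and 791 small RNA symbols were left out. Limma 3.58.1 (R 4.3.3) with a variance trend was fitted across all genes, two-sided, with Benjamini-Hochberg adjustment and a threshold of 0.05, and was tested on simulated data. The embryo fit had 3 libraries and 1 residual degree of freedom. The Day 4 minus embryo and genotype fits had 5 libraries, additive terms and 2 residual degrees of freedom, and the interaction fit had 1. Stage and Day 4 genotype comparisons had 1 library each and no test. Relative depth came from the commonest ratio between values below 0.06 FPKM (112 to 193 genes, 16.5% to 25.9% of them within 0.03 on the log2 scale). Coordinates and promoters are RefSeq's, GRCm38.p6; motifs were matched exactly, and 3 of the 8 were added after the sequences were read. Plots used matplotlib 3.10.9.

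The genes and lists were chosen with earlier results of these data known. Named are all 10 genes, the list genes past the threshold (with no test, the 3 with the largest differences) and the 3 genes nearest in profile to Pou5f1, Utf1 and Dppa5a. Other genes named (Klf2, Nanos3, Prdm1, Foxa2, Afp, Sox17, Ttr, Apoa1, Elf5, Krt8 and the mesoderm genes) were named after their values were seen. A list gene past the threshold is not reported here by name. Alternatives covered the pseudocount, filter, normalization, variance model, small RNA genes and each library left out; differences within each genotype were added after seeing the data.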

Additional observations from a re-analysis of the deposited data

How the results depend on the processing

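No paired analysis was possible, because the embryo control is 1 library of both stages and each Day 4 genotype is 1 library. Of the embryo genotype calls, 267 genes in all, 0 remained with no filter (2251 of 17367 at an unadjusted p under 0.05 in limma), 34 under quantile normalization and 25 with all 5 libraries in the fit; the count for the 10 genes went from 1 to 0 in each. For Day 4 minus embryo, leaving out 1 library gave 4264 to 5558 calls against 6022, and 5 to 8 of the 10 genes called against 8; the count of 5 was without the Day 4 T_Y88A library, where Pou5f1 and Dppa3 lost their calls and Esrrb was below the filter. Nanog, Utf1, Dppa4, Dppa5a, Esrrb and Zfp42 kept theirs in every alternative that tested them. The genotype fit over 5 libraries called 8 genes, 2 with a pseudocount of 0.1, 1 with no filter and 3 to 54 with 1 library left out, when 0 to 1 of the 10 genes passed; the 1 was Dppa3 without T_Y88A TS12 (adjusted p = 0.0165). The interaction called 17 genes, 1245 with no filter, 3 with at least 1 FPKM in any library, 10 under quantile normalization, 7 without the variance trend and 9 with small RNA genes kept; the causes were not tested. Values that changed sign, all of them uncalled, were the embryo difference of Pou5f1 (-1.84 to 1.16 with 1 T_Y88A library left out), the genotype differences over 5 libraries of Zfp42 (0.84 with a pseudocount of 0.1; -0.54 to 0.35 with 1 library left out), Pou5f1 (-0.77 to 0.73) and Nanog (-0.58 to 0.65), and the interaction of Esrrb (0.10 with a pseudocount of 0.1). FPKM hold no counts, so detection limits for genes listed at 0 are unknown.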
